A study of Mus musculus with 6 samples.

Results

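The tricarboxylic acid (TCA) cycle genes, with the genes that bring pyruvate into the cycle and those that link it to glutamate and aspartate, were followed in mouse colorectal tumours grown in white adipose or in non-adipose tissue. The members were a named list of 31 metabolic genes, and 30 of them had a value among the 22180 genes measured. Pc, the gene of pyruvate carboxylase, was matched by its RefSeq synonym and is called Pcx here; Mpc2, a subunit of the mitochondrial pyruvate carrier, was not analysed here. Each gene was read from its brightest probe set, among those annotated to exactly 1 gene symbol. Cancer cells were injected into white adipose tissue or into non-adipose tissue of mice, and tumours were taken at a size of 1 to 1.5 cm3. Each group held 3 tumours, 1 to a mouse and 1 to a whole-transcript Affymetrix array, and no drug or genetic change was named for either group. The labels did not name the cancer cell line, the mouse strain or its age, or the non-adipose site, which limits what the groups can stand for.

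The TCA cycle is a ring of mitochondrial reactions that burns acetyl-CoA to carbon dioxide and hands the electrons to the respiratory chain. Acetyl-CoA comes from pyruvate, through the pyruvate dehydrogenase complex, and from the breakdown of fatty acids. Glutamate and aspartate join the cycle at 2-oxoglutarate and oxaloacetate, and the same intermediates leave it for the making of sugars, lipids and amino acids.

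All values below are deposited log2 signals, on which a difference of 1 is a 2-fold difference. Across genes, the arrays correlated with each other at 0.983 to 0.995. White adipose replicate 1 stood somewhat apart, with the lowest array weight in limma (0.435 against 0.888 to 1.64 for the other arrays), and several values that it moved are also given without it. Of the 10 colorectal epithelial markers, the keratin genes Krt8 and Krt18 lay at 9.46 to 10.04 and 9.14 to 9.85. The intestinal markers Cdx2 (5.08 to 5.63), Vil1 (4.39 to 4.88) and Krt20 (4.65 to 4.80) lay below 5.94, the median of all genes. So did the epithelial marker Epcam (4.61 to 5.29). No detection call was used for any gene, so whether such dim genes were detected was not tested. Lgals4 (5.39 to 5.63), Cdh17 (4.78 to 5.03) and Krt19 (5.20 to 5.88), also of this list, lay below the median of all genes as well. The epithelial marker Cdh1 lay at 6.60 to 7.95, above that median in every array. All 10 skeletal muscle markers had a lower mean in the white adipose tumours. Their list mean was 6.39, 5.595 and 6.98 in non-adipose replicates 1, 2 and 3 and 5.63 to 5.74 in the white adipose arrays. White adipocyte markers, 9 of 10 measured, averaged 5.49 to 5.58 in the non-adipose and 5.31 to 5.86 in the white adipose arrays, with Adipoq at 4.10 to 4.27 throughout. The hypoxia target list, 11 of 12 measured, averaged 9.74, 9.37 and 9.64 in non-adipose replicates 1, 2 and 3 and 9.76, 8.84 and 9.27 in white adipose replicates 1, 2 and 3. All 11 measured proliferation genes had a lower mean in white adipose, with a median difference of -0.086. The fibroblast list averaged 10.2 to 10.5 in the non-adipose and 10.4 to 10.8 in the white adipose arrays, with 4 of its 6 genes higher. The part of these markers in the results below was not tested, and in bulk tissue fewer cells of a type and less RNA per cell cannot be told apart.

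None of the 30 genes differed between the 2 sites beyond the spread between tumours once all genes were adjusted for. The white adipose mean was higher for 16 of them and lower for 14, and the median log2 difference was 0.017, against -0.00043 over all genes. The differences ran from -0.18 for the cytosolic aconitase Aco1 to 0.15 for Suclg2, a succinyl-CoA ligase subunit, which are 1.13-fold and 1.11-fold. By limma with Benjamini-Hochberg adjustment, 0 members and 0 of the 22180 genes (0%) reached an adjusted p of 0.05, and the lowest was 0.936. Before adjustment, at a p under 0.05, 1 member was lower in white adipose, where 2.13% of all genes were, and 0 members were higher, where 1.66% of all genes were. Leaving out white adipose replicate 1 made the lower and higher members together 3, while such genes among all 22180 rose from 841 to 1800. Leaving out any 1 of white adipose replicates 2 or 3, or of non-adipose replicates 1 or 2, made the members 0. All genes at this p then numbered 640 to 897.

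The intervals give the size of difference that these arrays leave possible. For all 30 members the 95% confidence interval of the difference lay within 1.41-fold in either direction, and for 17 of them within 1.2-fold. Over all genes, 79.0% of the intervals lay within 1.41-fold, as did 82.4% of those of genes brighter than the median. With 1 array left out, the interval lay within 1.41-fold for 28 or 29 members. The bounds of 1.41-fold (0.5 on the log2 scale) and 1.2-fold were picked after the values were seen. The members also varied little from tumour to tumour: the spread from the lowest to the highest of the 6 arrays had a median of 0.235 over the members, 0.348 over all genes and 0.311 over genes brighter than the median. It was narrowest for Mdh2 (0.085) and widest for Pcx (0.718).

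**Figure D1:**
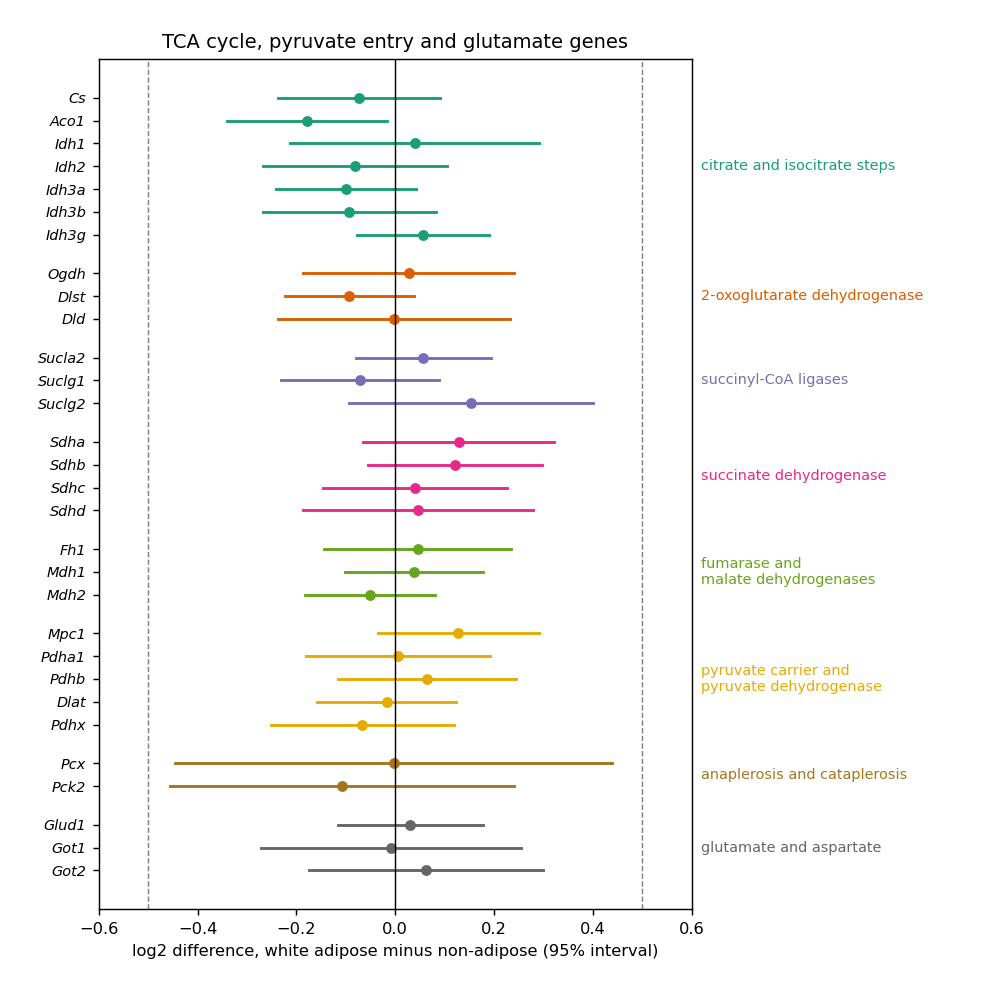
Log2 difference in expression (white adipose minus non-adipose, x axis) of the 30 measured genes, ordered by role. Points are limma estimates from 3 arrays per group, bars are 95% confidence intervals, and dashed lines mark 1.41-fold in either direction. Every bar lies between the dashed lines, and the bar of Aco1 alone lies wholly on one side of 0.

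The first steps of the cycle join acetyl-CoA to oxaloacetate and turn the citrate made into 2-oxoglutarate. Of the 7 genes of these steps, 5 lay lower on average in the white adipose tumours and 2 higher, with a median difference of -0.081. Aco1, which interconverts citrate and isocitrate in the cytosol and doubles as an iron-sensing RNA-binding protein, was the member with the smallest p. It stood at 8.96, 8.97 and 8.89 in non-adipose replicates 1, 2 and 3 and at 8.83, 8.68 and 8.79 in white adipose replicates 1, 2 and 3. Each white adipose array was below every non-adipose array. The group means were 8.94 ± 0.047 (SD, n = 3) and 8.76 ± 0.078 (SD, n = 3). The log2 difference was -0.18 (SE 0.067), with an unadjusted p of 0.0361 and an adjusted p of 0.936 by limma. It was -0.21 without white adipose replicate 1 and ran from -0.21 to -0.13 whichever array was left out.

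NAD-dependent isocitrate dehydrogenase, a control point of the cycle, is built of a catalytic subunit (Idh3a) and partner subunits (Idh3b and Idh3g), and these did not share a direction. Idh3a stood at 8.35, 8.29 and 8.39 in non-adipose and 8.26, 8.21 and 8.26 in white adipose replicates 1, 2 and 3. Its groups did not overlap, and the difference was -0.099 (SE 0.058, unadjusted p = 0.14 by limma). Idh3g stood at 10.61, 10.59 and 10.58 in non-adipose and 10.62, 10.65 and 10.68 in white adipose replicates 1, 2 and 3. These groups did not overlap either, but white adipose replicate 1 (10.616) was barely above non-adipose replicate 1 (10.613), and the difference was 0.056 (SE 0.055). Idh3b differed by -0.093 (SE 0.072), with overlapping groups. Citrate synthase (Cs), which makes citrate, differed by -0.074 (SE 0.067). The NADP-dependent isocitrate dehydrogenases, which supply NADPH, differed by 0.039 (SE 0.10) for the cytosolic Idh1 and by -0.081 (SE 0.076) for the mitochondrial Idh2. Idh1 was highest in white adipose replicate 1, at 9.41 against 9.095 to 9.26 in the other arrays, and differed by -0.062 without it.

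The 2-oxoglutarate dehydrogenase complex turns 2-oxoglutarate into succinyl-CoA. Dlst, its succinyl-transferring core enzyme, stood at 9.11, 9.097 and 9.12 in non-adipose and at 9.002, 8.99 and 9.05 in white adipose replicates 1, 2 and 3. The groups did not overlap, and the non-adipose arrays lay within a narrow band. The difference was -0.093 (SE 0.054), with an unadjusted p of 0.136 by limma. Ogdh, the decarboxylating enzyme, differed by 0.027 (SE 0.088), and Dld, the flavoprotein that pyruvate dehydrogenase also uses, by -0.0027 (SE 0.096). Arrays of the 2 groups were fully separated for 3 members lower in white adipose (Aco1, Idh3a and Dlst), where 3.97% of all genes were. They were fully separated for 1 higher member (Idh3g), where 3.34% of all genes were. All 30 members were brighter than the median gene. Of the 11090 genes brighter than the median, 624 were fully separated and lower, and 304 fully separated and higher. Both directions together made 8.37% of these brighter genes and 13.3% of the members.

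**Figure D2:**
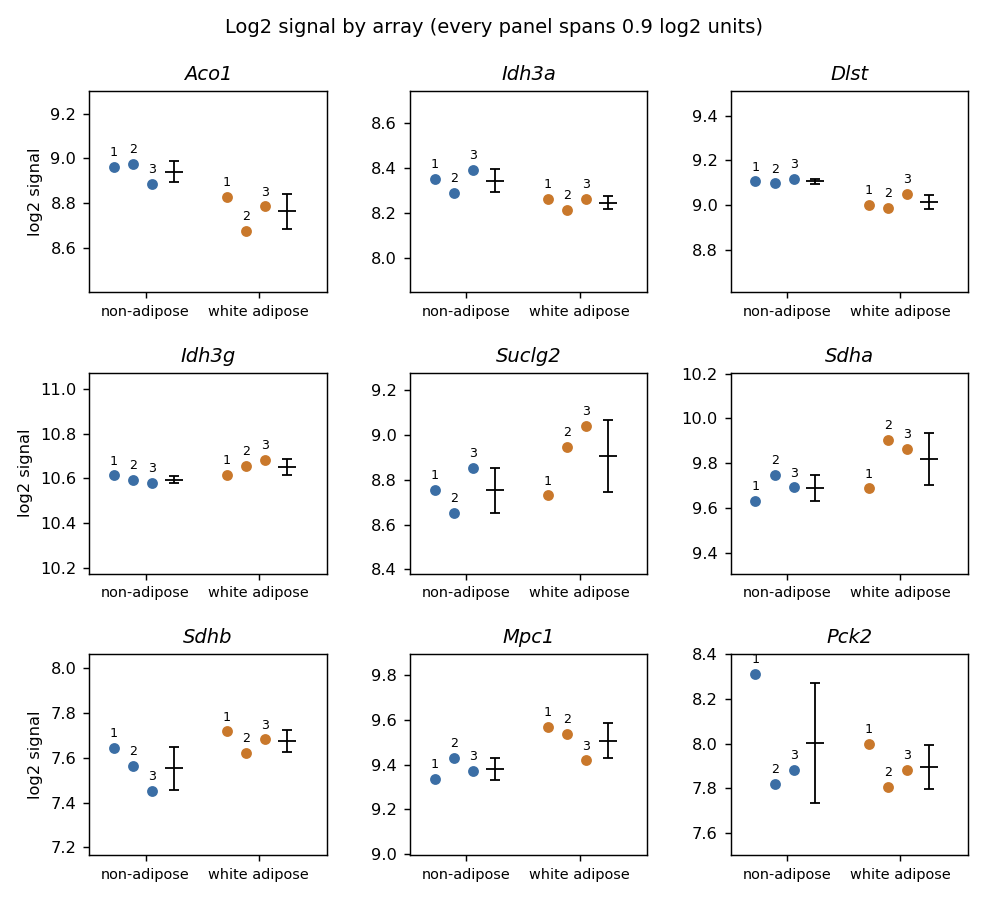
Log2 signal (y axis) of 9 members by group. Points are single arrays, numbered by replicate, and the bars beside them are the mean ± SD of 3 arrays. Aco1, Idh3a and Dlst lie lower in all 3 white adipose arrays, Suclg2 and Sdha are high in white adipose replicates 2 and 3 only, and Pck2 is high in non-adipose replicate 1.

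Succinyl-CoA ligase makes ATP or GTP as it frees succinate. Its shared subunit Suclg1 differed by -0.071 (SE 0.065) and the ATP-forming subunit Sucla2 by 0.057 (SE 0.056). The GTP-forming subunit Suclg2 stood at 8.75, 8.65 and 8.85 in non-adipose and at 8.73, 8.95 and 9.04 in white adipose replicates 1, 2 and 3. White adipose replicates 2 and 3 were above every non-adipose array, and replicate 1 was not. The difference was 0.15 (SE 0.10, unadjusted p = 0.18 by limma), and 0.24 (unadjusted p = 0.0331) without white adipose replicate 1. A second probe set of Suclg2, at 4.74 to 5.24, differed by 0.25.

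Succinate dehydrogenase belongs to both the cycle and the respiratory chain, where it is complex II. All 4 of its subunit genes had a higher mean in the white adipose tumours, with differences from 0.041 to 0.13 and a median of 0.083. None of the 4 passed the threshold. The iron-sulphur subunit Sdhb had the smallest p of the 4 (unadjusted p = 0.146 by limma). It stood at 7.64, 7.56 and 7.45 in non-adipose and at 7.72, 7.62 and 7.68 in white adipose replicates 1, 2 and 3, with a difference of 0.12 (SE 0.072). Only non-adipose replicate 1 overlapped the white adipose arrays. The flavoprotein subunit Sdha stood at 9.63, 9.75 and 9.69 in non-adipose and at 9.69, 9.905 and 9.87 in white adipose replicates 1, 2 and 3. Like Suclg2, it was high in white adipose replicates 2 and 3 and not in replicate 1. It differed by 0.13 (SE 0.079), and by 0.19 (unadjusted p = 0.0282 by limma) without white adipose replicate 1. The membrane anchors Sdhc and Sdhd differed by 0.041 (SE 0.077) and 0.045 (SE 0.096). The anchors turned negative when 1 array was left out, Sdhc to -0.018 when white adipose replicate 2 was omitted. Sdhd became -0.033 when non-adipose replicate 3 was omitted and -0.017 when it was white adipose replicate 1. The sign shared by the 4 subunits thus held for Sdha and Sdhb with each array left out and not for the anchors.

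The last steps return fumarate to oxaloacetate. Fumarase (Fh1) differed by 0.045 (SE 0.078), cytosolic malate dehydrogenase (Mdh1) by 0.038 (SE 0.058) and mitochondrial malate dehydrogenase (Mdh2) by -0.051 (SE 0.054). Mdh2 had the smallest p of these and the narrowest spread of all members. It stood at 10.31, 10.28 and 10.30 in non-adipose and at 10.29, 10.23 and 10.23 in white adipose replicates 1, 2 and 3. White adipose replicate 1 overlapped the non-adipose arrays.

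Pyruvate enters mitochondria through a carrier and is then oxidised by the pyruvate dehydrogenase complex. The carrier subunit Mpc1 stood at 9.34, 9.43 and 9.37 in non-adipose and at 9.57, 9.54 and 9.42 in white adipose replicates 1, 2 and 3. White adipose replicate 3 lay among the non-adipose arrays. The difference was 0.13 (SE 0.067), with an unadjusted p of 0.104 by limma, and a second, dimmer probe set differed by 0.14. With the probe sets of each gene averaged, Mpc1 differed by 0.14 (unadjusted p = 0.0488 by limma). The genes of the complex itself differed less: the E1 subunits Pdha1 by 0.0064 (SE 0.077) and Pdhb by 0.065 (SE 0.074), the acetyl-transferring core Dlat by -0.017 (SE 0.058) and the binding protein Pdhx by -0.067 (SE 0.076). Complete 95% intervals for these 4 ran from -0.25, the lower bound of Pdhx, to 0.25, the upper bound of Pdhb.

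**Figure D3:**
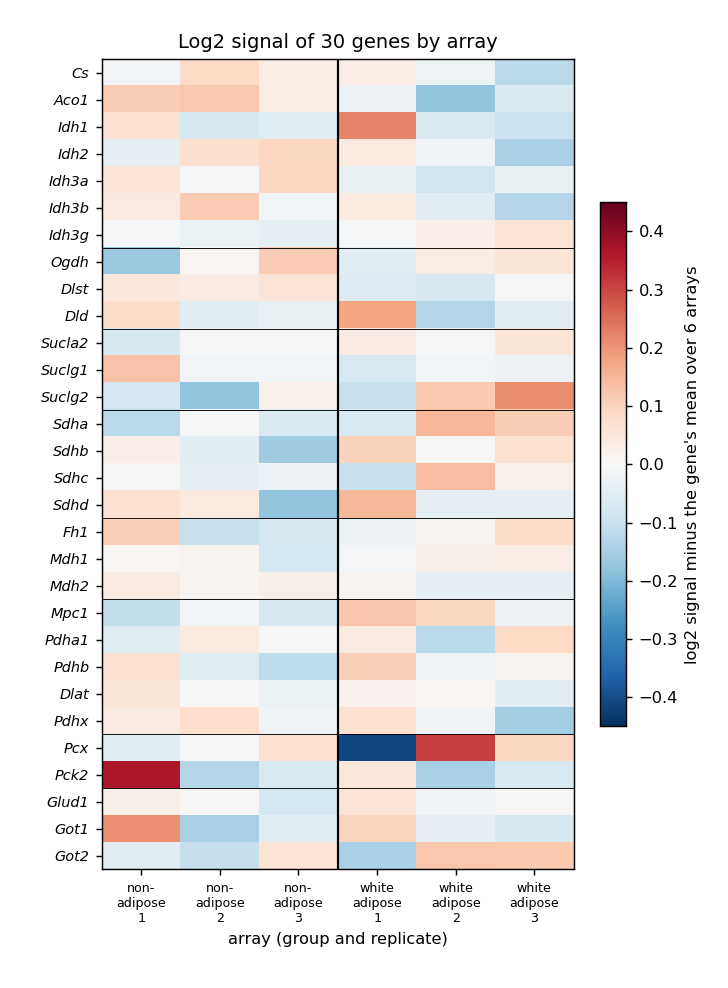
Log2 signal of the 30 measured members (rows, ordered by role) in each array (columns), shown as the deviation from the gene's own mean over 6 arrays on a colour scale from blue (lower) to red (higher). The vertical line separates the groups, and the widest spreads are those of Pcx (0.718) and Pck2 (0.507).

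Pyruvate carboxylase (Pcx) refills oxaloacetate from pyruvate, and the mitochondrial phosphoenolpyruvate carboxykinase Pck2 draws it off. Pcx stood at 6.01, 6.06 and 6.13 in non-adipose and at 5.66, 6.37 and 6.16 in white adipose replicates 1, 2 and 3. The white adipose arrays lay on both sides of the non-adipose ones, so the difference of -0.0027 (SE 0.18) became 0.20 without white adipose replicate 1 and -0.16 without replicate 2. Pck2 stood at 8.31, 7.82 and 7.88 in non-adipose and at 8.0005, 7.81 and 7.88 in white adipose replicates 1, 2 and 3. It was high in 1 tumour, non-adipose replicate 1. The difference was -0.11 (SE 0.14), and 0.046 without that array.

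Glutamate dehydrogenase (Glud1), which feeds glutamate carbon into the cycle, differed by 0.031 (SE 0.060). Got1 and Got2, the cytosolic and mitochondrial aspartate aminotransferases of the malate-aspartate shuttle, differed by -0.0085 (SE 0.11) and 0.062 (SE 0.097). Got2 had the smallest p of these (unadjusted p = 0.544 by limma) and stood at 9.97, 9.92 and 10.09 in non-adipose and 9.88, 10.15 and 10.14 in white adipose replicates 1, 2 and 3. White adipose replicate 1 was the lowest of the 6 arrays and replicates 2 and 3 the highest. Without white adipose replicate 1 the difference of Got2 was 0.15. A second, dimmer probe set of Got2 differed by 4e-05. Got1 was highest in non-adipose replicate 1, at 9.65, followed by white adipose replicate 1 at 9.54, while the other arrays lay at 9.30 to 9.41.

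The other pathway genes comprised 40 names, of which 37 were measured, and gave no call either. Of these 37, 21 had their greater mean in white adipose tumours and 16 in non-adipose tumours, with a median difference of 0.022, and 0 passed the threshold by limma. Slc25a18, a mitochondrial glutamate carrier gene, was the only one of them at an unadjusted p under 0.05. It was higher in white adipose, where 1.66% of all genes were, and 0 were lower, where 2.13% of all genes were. Its unadjusted p was 0.0349 and its adjusted p 0.936 by limma. It stood at 4.92, 5.08 and 4.95 in non-adipose and 5.17, 5.32 and 5.11 in white adipose replicates 1, 2 and 3, without overlap, and differed by 0.22 (SE 0.081). These are dim signals, and no detection call was used for any gene. Slc25a22, another glutamate carrier gene, stood at 7.04, 6.97 and 6.996 in non-adipose and 6.71, 6.92 and 6.92 in white adipose replicates 1, 2 and 3, also without overlap, at -0.15 (SE 0.078). It was -0.081 without white adipose replicate 1. These glutamate carriers thus lay in opposite directions. They were the only pathway genes without overlap, 2 of 37 (5.41%), against 7.31% of all genes.

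Of the 7 genes for the kinases and phosphatases that switch pyruvate dehydrogenase off and on, Pdk4 had the smallest p. It stood at 4.896, 5.16 and 5.81 in non-adipose and at 4.56, 4.97 and 4.90 in white adipose replicates 1, 2 and 3, and differed by -0.47 (SE 0.25). These signals were dim, below the median of all genes (5.94) in every array, and whether they were detected was not tested. Non-adipose replicate 3, where Pdk4 was highest, was also the array with the highest muscle marker mean (6.98). The other non-adipose arrays did not follow that order. Replicate 1 had the next highest muscle mean (6.39) with Pdk4 at 4.896, and replicate 2 the lowest (5.595) with Pdk4 at 5.16. The part of muscle in the Pdk4 values was not tested. Pdk1, also on the hypoxia list, was chosen after its values were seen. It stood at 8.24, 7.84 and 8.28 in non-adipose and 8.21, 7.04 and 7.70 in white adipose replicates 1, 2 and 3, and differed by -0.47 (SE 0.30). It was lowest in white adipose replicate 2, where the hypoxia list was lowest as well (8.84).

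Among the 5 malic enzyme and citrate-use genes, Me3 had the smallest p, at -0.51 (SE 0.29), with white adipose replicate 3 at 5.12 and the other arrays at 5.87 to 6.47. Lipoate attachment genes, of which Gcsh had the smallest p at 0.11 (SE 0.10), were all 4 on the higher side with a median of 0.033. Of the 3 other cycle enzymes measured, Ogdhl had the smallest p at 0.13 (SE 0.10), with dim signals of 4.79 to 5.17. Of the 4 succinate dehydrogenase assembly factors it was Sdhaf2 at -0.038 (SE 0.056). None of these differences passed the threshold.

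Glutamine and glutamate enzymes had a median difference of -0.12, with 5 of 7 measured genes lower. Psat1, of serine synthesis, had the smallest p, at -0.40 (SE 0.21). It stood at 8.92, 8.23 and 8.39 in non-adipose and at 8.35, 7.89 and 8.11 in white adipose replicates 1, 2 and 3. Its highest value came from non-adipose replicate 1, as for Pck2 and Got1. The same array was highest for the asparagine synthetase gene Asns (9.17 against 8.02 to 8.67 in the others), the proline synthesis gene Aldh18a1 (9.38 against 8.75 to 9.003) and the alanine aminotransferase gene Gpt2 (7.80 against 7.22 to 7.52), all 3 chosen after their values were seen. Of all 37 pathway genes, 9 (24.3%), these included, were counted as highest in that array, against 16.2% of all genes. In non-adipose replicate 3, 8 (21.6%) were highest, against 13.9% of all genes. The 9 include Sdhaf4, whose top value of 5.90 was shared by arrays of both groups and was counted for non-adipose replicate 1 only. Of all genes, 35.5% had the same value on 2 or more arrays, so these shares may depend in part on how ties were counted. Of the 30 members, 6 (20.0%) were highest in non-adipose replicate 1, against 16.2% of all genes. In white adipose replicate 1, 7 members (23.3%) were highest, against 18.4% of all genes. Repeated values occurred in 5 members, but never as the member's highest value.

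**Figure D4:**
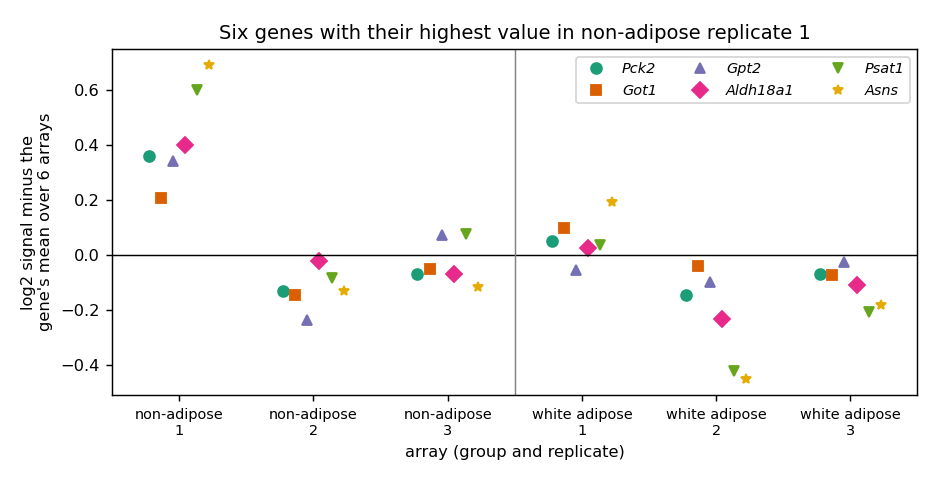
Log2 signal of Pck2, Got1, Gpt2, Aldh18a1, Psat1 and Asns in each array, as the deviation from the gene's own mean over 6 arrays (y axis). The genes were chosen after their values were seen; each has its highest point in non-adipose replicate 1.

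Pairs of enzymes of the same reaction in different compartments, the ATP- and GTP-forming ligase subunits, and 1 pair of subunits of one complex were compared as ratios within each array, for 6 pairs. The ratio of Mdh1 to Mdh2 differed by 0.089 between the groups, being -0.75 ± 0.055 (SD) in non-adipose and -0.66 ± 0.053 (SD) in white adipose tumours on the log2 scale. An exact two-sided permutation test gave p = 0.2, where 0.1 is the smallest possible with 3 against 3 arrays. The ratio differed by 0.12 for Idh1 to Idh2, -0.071 for Got1 to Got2, -0.097 for Sucla2 to Suclg2, 0.26 for Pck1 to Pck2 and -0.0059 for Idh3a to Idh3b. Pck1 was dim, at 5.37 to 5.86, below the median of all genes (5.94). Without non-adipose replicate 1, where Pck2 was high, the ratio of Pck1 to Pck2 differed by 0.14. The exact permutation p-values of these 5 ratios ran from 0.3 to 0.9, and every p adjusted over the 6 pairs was 0.6 or 0.9. Without white adipose replicate 1 the difference was -0.21 for Got1 to Got2, -0.19 for Sucla2 to Suclg2, 0.062 for Idh1 to Idh2 and 0.031 for Idh3a to Idh3b. In that setting it was 0.37 for Pck1 to Pck2 and 0.12 for Mdh1 to Mdh2. No pair separated the groups of arrays. As a description, the 4 members of the cytosol (Aco1, Idh1, Mdh1 and Got1) had a median difference of 0.015 and the 26 of the mitochondrion 0.017.

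**Figure D5:**
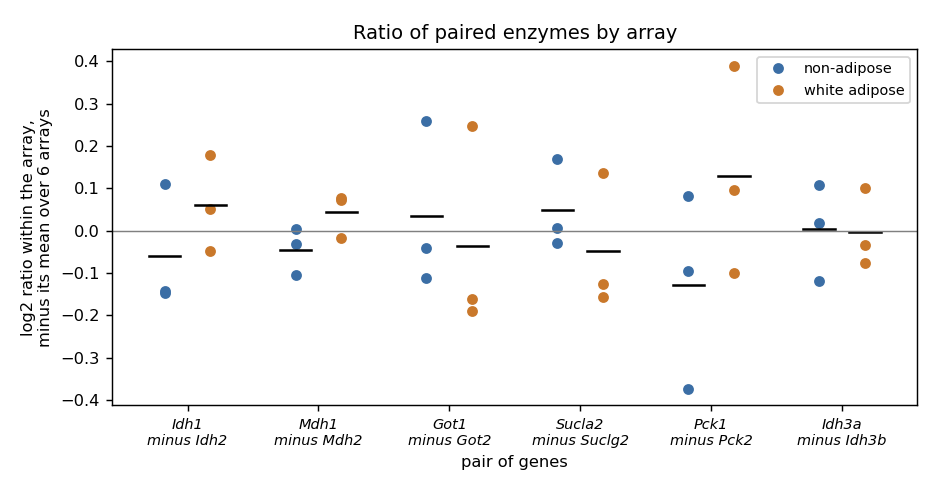
Log2 ratio of 2 enzymes within an array, minus the mean of that ratio over 6 arrays (y axis), for 6 pairs. Points are single arrays, coloured by group, and black bars are group means of 3 arrays. The groups overlap in every pair.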

How the data were processed

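RNA of 6 tumours was hybridised as biotin-labelled cDNA, per the labels' protocols. The authors deposited 1 table of log2 signals for 41345 probe sets, made with Affymetrix Expression Console per the submitters' processing notes. For its version, background correction, summarisation and normalization, the entry is: not given in the sources used here. That the deposited values are log2 was taken from their range, 0.973 to 13.6. Array medians were 5.66 to 5.69, so a change shared by most genes may have been removed upstream. No slide, scan date or detection call entered the work, so batches were not tested. The number of arrays limits the precision.

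The platform annotation gave 23521 probe sets exactly 1 symbol. The brightest probe set was kept for each of 22180 genes. All genes were fitted together by lmFit and eBayes of limma 3.58.1 (R 4.3.3), white adipose against non-adipose, with Benjamini-Hochberg adjustment over all genes and a threshold of 0.05. The p-values and SEs rest on the spread between tumours, moderated by limma toward the variance of all genes. They are therefore not each gene's own spread alone. For Dlst the SD within groups was 0.024 and the SE 0.054. The fit was tested on simulated data. The members and lists were chosen with earlier results of these data known, so lists are given by counts and medians. Every member was named, and values in all arrays were given for members at an unadjusted p under 0.05, members whose groups did not overlap and the member with the smallest p of each role. Sdha and Pcx met none of these conditions and were given in all arrays as picks outside the rule. Of the pathway genes, those at an unadjusted p under 0.05 or without overlap were named, and otherwise the smallest p of each group.

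Same-numbered arrays deviated together with correlations over genes of 0.142, 0.0640 and 0.0641. Differently numbered arrays gave -0.18 to 0.086. The labels named the groups and no batch, slide or date, and the main fit did not pair the tumours by number. The correlations do not settle whether the numbers mark pairs. Alternatives were a replicate block, subtracted array medians, quantile normalization, a filter on dim genes, trend and robust eBayes, array weights, averaged probe sets and each array left out.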

Additional observations from a re-analysis of the deposited data

How the results depend on the processing

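No gene was called by limma under any of the 13 alternatives, and 19 of the 30 members kept their direction in all of them. The number of genes at an unadjusted p under 0.05, 841, was 1621 with array weights, 512 with only genes above the median signal (fewer genes tested) and 640 to 1800 with 1 array left out. Among the members this number, 1, was 3 with array weights (Aco1, Sdha and Suclg2), 2 with averaged probe sets (Aco1 and Mpc1), 0 after quantile normalization, 0 with the replicate block and 0 to 3 with 1 array left out. Whether the numbers pair the tumours was not settled, and with the replicate block 1081 genes were at an unadjusted p under 0.05. The members' median difference of 0.017 ran from -0.014 to 0.042 with 1 array left out.

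The members that changed sign all differed by less than 0.11 with all arrays. With 1 array left out, Idh1 ran from -0.062 to 0.097, Ogdh from -0.049 to 0.092, Dld from -0.091 to 0.063, Sdhc from -0.018 to 0.10, Sdhd from -0.033 to 0.090, Pdha1 from -0.038 to 0.069, Dlat from -0.036 to 0.0052, Pcx from -0.16 to 0.20, Pck2 from -0.20 to 0.046, Glud1 from -0.00071 to 0.052 and Got1 from -0.083 to 0.093. The ratio of Got1 to Got2 ran from -0.21 to 0.041 and that of Idh3a to Idh3b from -0.067 to 0.047. Array weights gave -0.032 for Idh1, -0.0038 for Sdhd and 0.12 for Pcx. Subtracted medians gave -0.0028 for Pdha1. Quantile normalization gave 0.018 for Dld, 0.0026 for Dlat, 0.0035 for Got1 and 0.00096 for Idh3a to Idh3b. The cause of these moves was not tested.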
